A study of Caenorhabditis elegans with 21 samples.

Results

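The F-box B and F-box C families of *Caenorhabditis elegans* were followed through early embryos and young adults of strains that differ in the oocyte protein OMA-1. The members were all genes whose symbol starts with *fbxb-* or *fbxc-*. This gave 152 gene identifiers, 104 of them *fbxb* and 48 *fbxc*, among the 46891 identifiers in the embryo count tables. They carry 146 distinct symbols, because several *fbxc* symbols belong to more than 1 gene. Of the 152, 151 were also listed among the 18887 genes of the adult files. The choice used names and positions and no measured change, except that 8 members on a stretch of chromosome II were set apart because N2 had no counts there.

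F-box proteins are the substrate receptors of SCF ubiquitin ligases, complexes of a SKP1-related protein (SKR in *C. elegans*), a cullin and an F-box protein. The F-box contacts the SKR protein, and the rest of the F-box protein binds the substrate that is to be marked with ubiquitin. *C. elegans* has greatly expanded F-box A, B and C families, which lie in tandem arrays and differ between wild isolates, and most members have no known role of their own. The RNA-binding protein OMA-1, with zinc fingers of the CCCH type, represses the translation of mRNAs in oocytes and is normally degraded when embryonic cleavage begins.

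Embryo mRNA was measured in 3 genotypes kept at 25 °C. These were the wild type N2, the single mutant *oma-1(zu405)*, and a strain that adds a second mutation to it, *fzy-1(D433N);oma-1(zu405)*, called the double mutant below. The zu405 allele encodes OMA-1 P240L, a gain-of-function form that is degraded late and kills embryos at the restrictive temperature, and the *fzy-1* allele was isolated as a suppressor of that lethality. FZY-1 is an activator of the anaphase promoting complex, another ubiquitin ligase. The embryos came from bleached adults and were mostly at the 30-cell stage or younger. The labels describe 3 samples per genotype, and 2 libraries per genotype were analysed here, A1 and A2 of N2, C1 and C2 of *oma-1(zu405)*, and D1 and D3 of the double mutant. RNA immunoprecipitation (RIP) used whole young adults of 3 further strains at 25 °C, about 100000 animals a sample, in which *oma-1* carries GFP at its own locus. These were *oma-1::gfp*, *oma-1(P240L)::gfp* (*oma-1ts-gfp* in the labels), and the P240L knock-in with *fzy-1*, called the *fzy-1* P240L strain below. Each strain gave 2 RIP libraries and 2 input libraries, and none of the 12 used came from an untagged strain. Nothing in the labels says that libraries of a group came from separate cultures, so p-values measure the spread between these libraries.

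Embryo libraries held 3599426 to 18815357 counts, and the members took 0.179 to 0.336% of them. Levels in embryos are given as normalised CPM, counts scaled to the library total and edgeR's TMM factors, and levels in adults as RPKM, reads per kilobase of gene scaled to sequencing depth. Spearman's rho between the libraries of a genotype was 0.774 in the double mutant, 0.983 for *oma-1(zu405)* and 0.993 for N2. In the double mutant, 57.9% of genes differed by more than 1 log2 unit between D1 and D3. The summed level of 6 adult intestine and yolk genes was 24.7 normalised CPM in D1 and 1.45 to 3.11 in the other 5 libraries. All 13 early embryo and maternal germline RNAs on a marker list were above 0 in every embryo library, at a summed level of 1393 and 1435 normalised CPM in N2, 4830 and 1889 in D1 and D3, and 10373 and 10975 for *oma-1(zu405)*. Embryo RNA comes from all cells of the embryo, so fewer cells of a type and less RNA per cell cannot be told apart.

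Chromosome II carried 93 of the 152 members, 58 *fbxb* and 35 *fbxc*. The others lay on chromosomes I (10), III (8), IV (22), V (16) and X (3), by gene identifier in the WBcel235 annotation. All are annotated as protein coding. The *fbxb* genes were short, with a median of 1047 exonic bases (379 to 2517), and 85 of 104 had 2 exons. The *fbxc* genes had a median of 1166 exonic bases (955 to 2430), and 29 of 48 had 3 exons. With neighbours less than 20 kb apart counted as one array, the largest array held 20 members between positions 907448 and 1001451 of chromosome II. The deposited tables hold 2 public germline annotations. The first marked 54 of the 152 members (35.5%) as germline enriched, against 23.0% of 21034 genes. It marked 2 (1.32%) as soma enriched, against 18.6%. The second placed 4.61% of the members as oogenic (6.96% of all genes), 3.29% as spermatogenic (9.39%) and 1.32% as gender neutral (23.9%), each below background. Exons of 19 members overlap another coding gene, such as *fbxb-100* with *Y63D3A.12*, *fbxb-59* with *fbxa-113*, and *fbxb-103* with *bcmo-2*, and their values are less certain.

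The families were widely but unevenly expressed. In the embryos, 83 members had at least 10 counts in all 6 libraries and 10 had 0 counts in all 6. In N2 embryos, the level per kilobase had a median of 7.54 normalised CPM per kb over the members, while *fbxc-51* (chromosome II, 868814 to 871699) stood at 216 ± 6.18 (SD, n = 2). Next in this order of levels per kb came *fbxb-66* at 55.4, *fbxc-36* at 43.2, *fbxb-88* at 36.1, *fbxb-37* at 33.4, *fbxb-15* at 30.3, *fbxc-28* at 29.5 and *fbxb-84* at 27.6. Within it the libraries of *fbxb-15* and *fbxc-28* overlapped, as did those of *fbxb-84* and the next gene, *fbxc-52*.

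In adults the order was another one. In the *oma-1::gfp* inputs the median member was at 0.775 RPKM, and *fbxc-50* was highest at 44.6 RPKM, followed by *fbxc-44* (27.5), *fbxc-51* (16.9), *fbxc-47* (13.8), *fbxc-45* (8.18), *fbxc-32* (6.64), *fbxb-41* (4.21) and *fbxb-37* (3.87). The libraries of *fbxb-41* and *fbxb-37* overlapped in this order. *fbxc-47*, the fourth of the adult order, had 0 counts in all 6 embryo libraries, and its exons overlap *M02B7.7*. Of the 152 members, 27 reached 1 RPKM in all 6 inputs and 50 stayed under 1 RPKM in all 12 adult libraries. Over the 143 members outside the set-apart stretch with both values, Spearman's rho between the N2 embryo level and the *oma-1::gfp* input level was 0.62, a description of genes within these libraries, measured on different scales.

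On chromosome II, N2 had no read in a region where both *oma-1* strains had many. Between positions 988737 and 1049949, a stretch of 61.213 kb with 18 coding genes, A1 and A2 held 0 counts in all, while the *oma-1(zu405)* libraries held 6692 and 1431 and those of the double mutant 845 and 2671. The 8 members inside, *fbxc-39*, *fbxc-42*, *fbxb-29*, *fbxb-30*, *fbxb-39*, *fbxb-41*, *fbxb-45* and *fbxb-40* in chromosome order, summed to 3170 counts in C1 and 671 in C2, with 319 in D1 and 1857 in D3. The stretch was defined by these values, so the N2 comparison of its members is a description without a test. Counts alone cannot tell missing DNA in N2 from missing RNA.

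*fbxb-41* (WBGene00019703, 1041318 to 1042327) was the highest of the 8 in C1, C2 and D3, and second to *fbxb-40* in D1, with 1353 and 335 counts in *oma-1(zu405)* and 77 and 703 in the double mutant. Against the level that 3 counts in each N2 library would give (0.190 normalised CPM), its level was at least 614-fold higher for *oma-1(zu405)* and at least 299-fold higher for the double mutant. *fbxb-45* had 595 and 110 counts in *oma-1(zu405)* and 63 and 388 in the double mutant, at least 233-fold and 198-fold higher than N2. Thus both mutant genotypes carried RNA from these genes in every library.

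*fbxc-39* (988737 to 991146) had 426 and 105 counts in *oma-1(zu405)* and 27 and 438 in the double mutant, at least 193-fold and 152-fold higher. *fbxb-40* had 326 and 44 counts against 116 and 231, at least 112-fold and 246-fold higher. Of these abundant genes, *fbxb-40* alone had its larger bound in the double mutant.

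*fbxb-30* had 259 and 48 counts in *oma-1(zu405)* and 15 and 66 in the double mutant (at least 102-fold and 40.7-fold). *fbxc-42* had 175 and 23 counts against 18 and 23 (at least 59.5-fold and 34.9-fold), and *fbxb-39* had 32 and 6 against 3 and 4 (at least 12.6-fold and 5.86-fold). *fbxb-29* had 4 counts in C1 and in D3 and 0 in the other libraries, too few for a fold. These bounds cover counting error only.

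**Figure D1:**
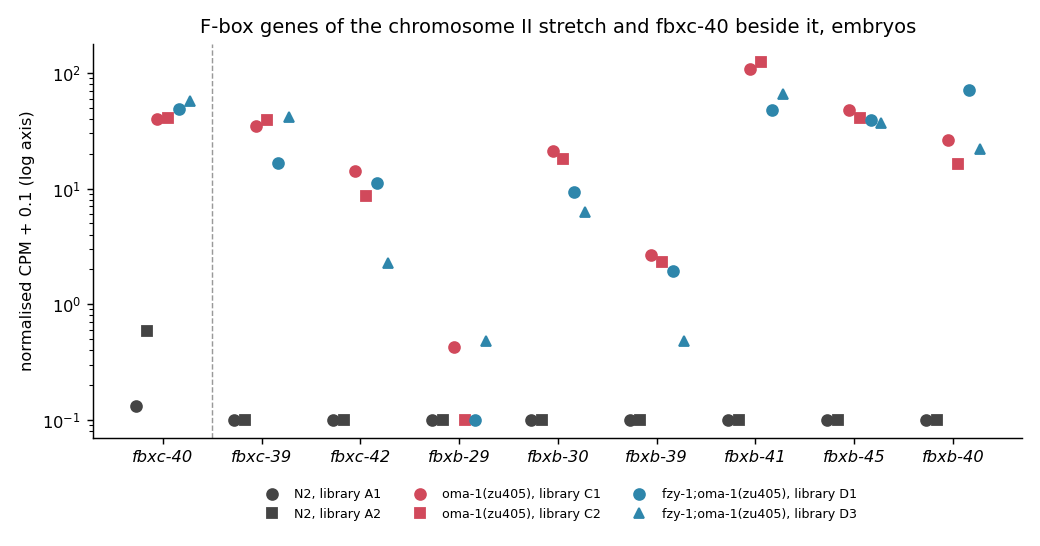
Level of each member at and beside the chromosome II stretch in the 6 embryo libraries, in normalised CPM + 0.1 on a log axis, so that a count of 0 stands at 0.1. Each point is 1 library, and the dashed line parts *fbxc-40*, outside the stretch, from the members inside. The 8 members inside had 0 counts in A1 and A2, and *fbxb-41* reached 1353 counts in C1.

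The edge was sharp on 1 side. *fbxc-40* (WBGene00016295, 986003 to 988670), which ends 66 bases before the stretch, had 1 and 5 counts in A1 and A2, 490 and 109 in C1 and C2, and 78 and 600 in D1 and D3. On the far side, the next coding gene, *K02E7.7*, had 27 and 8 counts in N2, and *btb-10* after it had 1128 and 360. The next member of the families beyond that edge was *fbxb-43*. Of the other genes inside, *btb-11* had 1724 and 450 counts in *oma-1(zu405)* and 0 in N2, so the pattern was shared by genes of other families there. The same members were listed in adults of all 3 tagged strains at a summed level of 11 to 20.3 RPKM per library, although *fbxb-29* and *fbxb-39* stayed near 0.

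Outside the stretch, *oma-1(zu405)* embryos were compared with N2 to ask which transcripts differ when OMA-1 persists into the embryo. Few members passed the thresholds, among them *fbxc-40*, *fbxc-50* and *fbxb-100* on the higher side and *fbxb-114* and *fbxb-88* on the lower side. Of 144 members, 125 had at least 10 counts in at least 2 of the 4 libraries and were tested. Called here means an adjusted p under 0.05 (edgeR's quasi-likelihood test, Benjamini-Hochberg adjustment over 12520 genes) and a log2 fold change past 2 in size. By this rule 8 members were higher (6.4%, against a background of 11.6% of all genes tested), 10 were lower (8%, background 22.6%) and 107 were not called. The median log2 fold change was 0.04 over the 125 members and -0.24 over all genes tested. Of those called, 1 higher (*fbxc-40*) and 4 lower members (*fbxb-114*, *fbxb-87*, *fbxb-9* and *fbxb-70*) reached 10 counts in the high genotype alone. They passed the filter only through it, which favours a difference, so their calls are no support for one. *fbxc-43*, *fbxc-23* and *fbxc-12* passed only through N2 and were not called. By family, 4 of 94 *fbxb* genes tested were higher and 9 lower, and 4 of 31 *fbxc* genes were higher and 1 lower.

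Scaling matters for this split. Under scaling to total counts instead of TMM, the median of all genes moved to -1.51 and that of the members to -1.22, and 1 member was called higher and 36 lower of 125, beside 2.4% and 40.7% of all genes. With all 6 libraries in 1 edgeR fit, 0 of 12885 genes were called in either direction, members included, and 40 of 125 members were at an unadjusted p under 0.05, beside 42% of all genes.

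The member with the largest rise was *fbxc-40*, the neighbour of the stretch. It had 1 and 5 counts in N2 and 490 and 109 in *oma-1(zu405)*, a log2 fold change of 7.96 (SE 0.42). This gene passed the filter only through *oma-1(zu405)*, so no p-value is given for it. *fbxc-45* (chromosome IV, 2919827 to 2922243) stood at 2.89 and 2.31 normalised CPM in N2 and at 25.2 and 23.8 in *oma-1(zu405)*, a log2 fold change of 3.14. *fbxc-50* (chromosome II, 3246316 to 3248123), the highest member in adults, stood at 8.79 and 8.17 against 80.9 and 55.0 normalised CPM, a log2 fold change of 2.97 (SE 0.22, adjusted p = 4.80e-13, edgeR). Each of these had both mutant libraries above both N2 libraries.

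A pair from 1 array of 4 on chromosome I rose. *fbxb-100* (14090730 to 14096348) went from 17.1 and 16 normalised CPM in N2 to 113 and 111 in *oma-1(zu405)*, a log2 fold change of 2.69 (SE 0.17), with the reservation that it overlaps *Y63D3A.12*. *fbxb-56* (14084512 to 14085525) went from 4.55 and 6.05 to 26.7 and 31.6 normalised CPM, a log2 fold change of 2.40. The 4 members of this array, *fbxb-93*, *fbxb-56*, *fbxb-101* and *fbxb-100*, had log2 fold changes from -0.02 (*fbxb-101*) to 2.69, with *fbxb-93* at 0.66, and the latter pair was not called.

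The other 3 that rose were nearer the threshold. *fbxc-36* (chromosome II, 940983 to 943167), the third in the N2 order, stood at 50.003 and 46.0 normalised CPM in N2 and 237 and 213 in *oma-1(zu405)*, a log2 fold change of 2.16. *fbxb-59*, which overlaps *fbxa-113*, had a log2 fold change of 2.14 and *fbxb-47* one of 2.01. Without A2 these 3 were at 1.92, 1.95 and 1.77, under the threshold. Without C1 *fbxc-36* was at 2.00, just under the threshold, and *fbxb-47* was at 1.86.

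Among the members that fell, *fbxb-114* (chromosome X, 16921833 to 16923145) had 138 and 46 counts in N2 and 2 and 0 in *oma-1(zu405)*. The ratio of normalised N2 to *oma-1(zu405)* counts was 32.4 (95% interval 8.83 to 269, counting error only), and the fitted log2 fold change was -4.97 (SE 0.71). As *fbxb-114* passed the filter only through N2, no p-value is given for it. *fbxb-87* (chromosome III, 10894520 to 10896256) had 141 and 43 counts against 3 and 1, a log2 fold change of -3.98. In both genes *oma-1(zu405)* was close to no counts.

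*fbxb-88* (chromosome II, 4826446 to 4827884), the fourth in the N2 order, was abundant and stood at 44.9 and 46.2 normalised CPM in N2 and 5.96 and 2.97 in *oma-1(zu405)*, a log2 fold change of -3.17 (SE 0.25, adjusted p = 2.53e-12, edgeR). *fbxb-37* (chromosome II, 2092578 to 2093876) stood at 40.9 and 42.6 against 11.3 and 6.69 normalised CPM, a log2 fold change of -2.12, and at -1.87 without C2. *fbxc-20*, the 1 *fbxc* gene that fell, stood at 16.6 and 18.7 against 2.74 and 2.60 normalised CPM (-2.73), and its exons overlap *F42G2.7*. So 3 of the members that fell were well above the median member in N2.

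The rest that fell were *fbxb-78* (log2 fold change -2.74), *fbxb-70* (-2.49), *fbxb-9* (-2.26), *fbxb-19* (-2.18) and *fbxb-92* (-2.17). Without C1, *fbxb-70* was at -1.31 and *fbxb-92* at -1.81. Under each of the 4 fits that left out a library, *fbxb-100*, *fbxb-56*, *fbxc-50* and *fbxc-45* were called higher and *fbxb-88*, *fbxb-78*, *fbxc-20* and *fbxb-19* lower. *fbxc-40*, *fbxb-114*, *fbxb-87* and *fbxb-9* no longer passed the count filter in some of these fits and were not tested there. *fbxb-88*, *fbxb-78*, *fbxc-20* and *fbxb-19* each reached the minimum of the count filter in only 1 *oma-1(zu405)* library. In the fit without that library they passed only through N2, so their calls in that fit are no support for a difference.

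**Figure D2:**
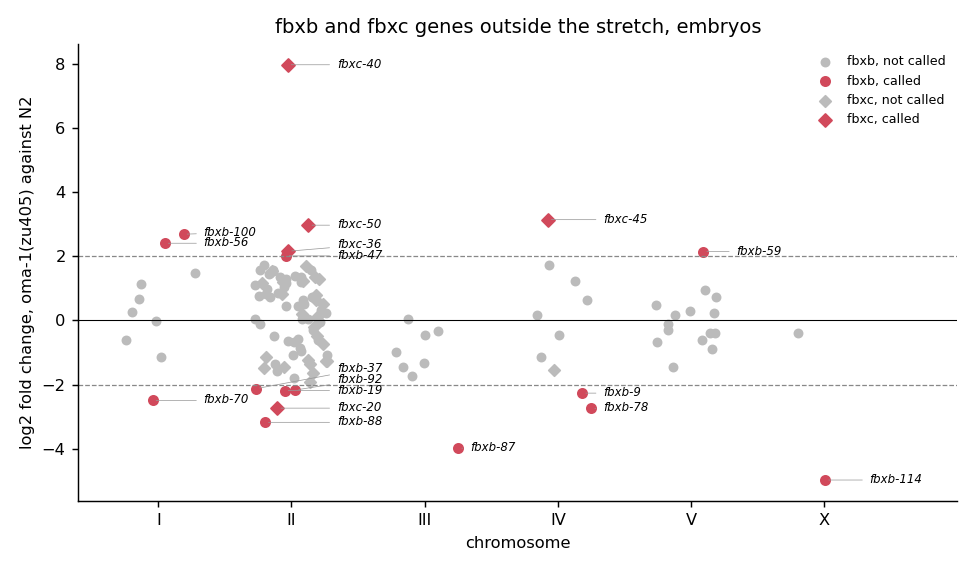
Fitted log2 fold change of each member tested outside the stretch, *oma-1(zu405)* over N2 embryos (vertical axis, n = 2 libraries per genotype), by chromosome (horizontal axis), with circles for *fbxb*, diamonds for *fbxc* and dashed lines at the threshold of 2 in either direction. The 8 members called higher and the 10 called lower are coloured and named, from *fbxc-40* at 7.96 to *fbxb-114* at -4.97.

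Neighbours in an array did not all move alike. On chromosome II, the 4 members *fbxb-95* to *fbxb-98* had log2 fold changes of 0.85 to 1.71 with a median of 1.49, and none was called. The 3 members *fbxb-90* to *fbxb-92* had a median of -1.80 (-2.17 to -0.49), and on chromosome III *fbxb-81* to *fbxb-84* had a median of -1.16. By chromosome, the median log2 fold change of the members tested was 0.46 on I, 0.29 on II, -1.16 on III, -0.13 on IV, -0.12 on V and -2.69 on X, where 2 members were tested.

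The partners of F-box proteins showed other counts in the same comparison. Of 20 SKP1-related *skr* genes, 17 were tested and 9 were called higher and 0 lower, with a median log2 fold change of 2.03. Under total-count scaling 2 were higher and 2 lower (median 0.77). Of the 3 SCF core genes *cul-1*, *cul-6* and *rbx-1*, 2 were tested and 1 was called higher, and of 7 other named F-box genes such as *lin-23* and *sel-10*, 1 was called higher. The third expanded family, F-box A, had 51 of 170 genes tested, 1 called higher and 21 lower, with a median of -1.12 that was also below 0 under total-count scaling (-2.41). On the marker lists, 9 of 13 early embryo and maternal RNAs were called higher (3 of 13 under total-count scaling) and 0 of 10 later embryo genes. Their part in the members' changes was not tested.

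Some members were counted in one genotype and nearly missing from another. By the rule of at least 10 counts in both libraries of 1 genotype and under 10 in both of another, this held outside the stretch for *fbxc-40*, *fbxb-114*, *fbxb-87*, *fbxb-9*, *fbxb-70* and 4 further *fbxc* genes. *fbxc-23* had 38 and 13 counts in N2, 8 and 0 in *oma-1(zu405)*, and 0 and 17 in the double mutant. *fbxc-43* had 22 and 10, 5 and 0, and 3 and 3 in the same order. *fbxc-12* had 22 and 26, 6 and 1, and 1 and 1, and *fbxc-17* had 39 and 14, 12 and 2, and 1 and 9. With N2 counts of 10 to 39 in these 4, depth limits what low counts elsewhere show.

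In the double mutant, compared to ask which transcripts return when *fzy-1* is mutated, the libraries stood apart from each other over the same members. Of the 125 members above, 65 lay within 1 log2 unit of the N2 mean in D1 and 120 did in D3, while 75 did in C1 and 66 in C2. All 8 members called higher in *oma-1(zu405)* were more than 1 log2 unit above N2 in D1, with a median difference of 2.52, whereas 7 of the 8 were within 1 unit in D3. *fbxc-40* was the exception, at 48.2 and 56.5 normalised CPM in D1 and D3 against 0.0307 and 0.481 in N2. *fbxb-100* shows the split, at 110 normalised CPM in D1 and 21.9 in D3, with N2 at 17.1 and 16. These differences are on the log2(normalised CPM + 1) scale and describe libraries, since the members were chosen on the N2 and *oma-1(zu405)* values.

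The members lower in *oma-1(zu405)* split less cleanly. Of these 10, 5 were more than 1 log2 unit below N2 in D1, and 9 were within 1 unit of N2 in D3. *fbxb-37* stood at 59.3 normalised CPM in D1 and 25.5 in D3 against 40.9 and 42.6 in N2. *fbxb-78* stood at 1.24 in D1 and 7.54 in D3 against 11.4 and 13.4. Thus D1 was above N2 for one of these genes and far below it for the other. Other lists split D1 from D3 as well. The yolk genes named above were high in D1, the early embryo and maternal list stood at 4830 normalised CPM in D1 and 1889 in D3, and 20 SKP1-related genes at 5418 in D1 and 1260 in D3, with N2 at 1276 and 1179 and *oma-1(zu405)* at 5851 and 5301. Their part in the members' split was not tested.

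**Figure D3:**
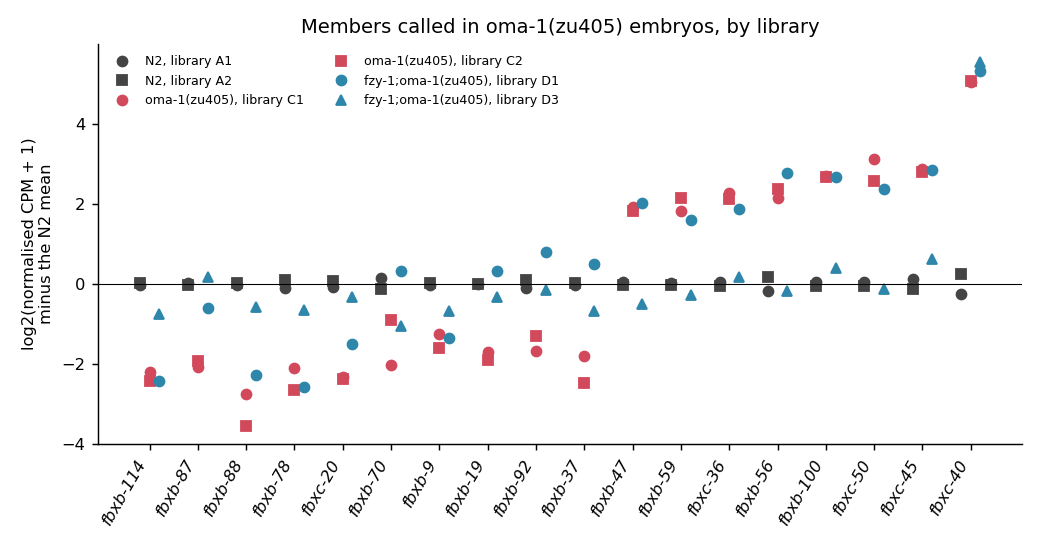
Difference of each library from the N2 mean for the 8 members called higher and the 10 called lower in *oma-1(zu405)*, on the log2(normalised CPM + 1) scale, 1 point for each of the 6 embryo libraries. For the 8 higher members, C1, C2 and D1 lie more than 1 unit above N2, and D3 lies within 1 unit for 7 of them.

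With these libraries as replicates, edgeR called 0 of 124 members outside the stretch in the double mutant against N2 (0.0% of 12684 genes in each direction) and 0 of 123, stretch members included, against *oma-1(zu405)* (0.0% of 10477). These 2 comparisons share the double mutant libraries, and the first shares N2 with the comparison above. At an unadjusted p under 0.05 the count was 12 of 123 against *oma-1(zu405)* (8.22% of all genes). Against N2 it was 2 of 124 (3.99% of all genes), namely *fbxc-40* with a log2 fold change of 7.95 and *fbxb-6* with 2.40. *fbxc-40* had 1 and 5 counts in N2 and passed the filter only through the double mutant. Its place in this count is therefore no support for a difference. DESeq2 called 1 member higher against N2 (2.92% of all genes) and 0 against *oma-1(zu405)* (0.22%). Without D3, 13 of 122 members were called higher and 10 lower against N2, beside 15.2% and 22.3% of all genes, and 14 of 112 were called higher against *oma-1(zu405)*, beside 11.6%. Without D1, 1 of 123 was lower against N2 (1.55% of all genes), and 7 of 122 were higher and 7 lower against *oma-1(zu405)* (10.4% and 8.17%). In the simulated data, 200 well-counted genes were given a change past the threshold, with a common spread taken from these libraries. There edgeR recovered 24.5% and 0.5% of them in the 2 comparisons, so a difference of this kind was mostly not detectable here. Against *oma-1(zu405)*, 0 of the stretch members were called, and *fbxb-41* was at -0.86 (SE 0.51) and *fbxb-40* at 1.26 (SE 0.72).

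The RIP of adult worms asks which transcripts come down with OMA-1::GFP. In *oma-1::gfp*, a small group of F-box transcripts was enriched over the input, led by *fbxb-60*, *fbxb-103* and *fbxc-33*. With limma on log2(RPKM + 1), tested where 2 or more libraries reached 1 RPKM, an adjusted p under 0.05 and a log2 change past 1, 9 of 72 members tested were enriched (12.5%, background 9.12% of 9743 genes) and 0 were depleted (background 19.4%). At an unadjusted p under 0.05, 14 were above and 6 below 0, together 20 of 72 against a background of 50.3% of all genes. The median log2 enrichment was -0.06 over the members and -0.37 over all genes. The other 80 members were too low to be tested. Of the 9 enriched, *fbxc-31* and *fbxb-78* reached 1 RPKM in the RIPs alone and passed the filter only through them. This favours a difference, so their calls are no support for one. Part of the calls of enriched members were lost without input 1, input 2 or RIP 1. The share of all genes called in those fits is not given here, so this loss is no trait of the families.

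*fbxb-60* (WBGene00010104, chromosome V, 19297810 to 19298844) stood at 2.83 and 1.70 RPKM in the inputs and 24.3 and 34.4 RPKM in the RIPs. Its log2 enrichment was 3.22 (SE 0.31, adjusted p = 0.000208, limma). *fbxb-103* (WBGene00018746, chromosome II, 3907140 to 3908516) stood at 0.762 and 2.26 RPKM in the inputs and 19.6 and 11.2 in the RIPs, a log2 enrichment of 2.73 (SE 0.38, adjusted p = 0.00107, limma). Neither had overlapping input and RIP libraries.

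*fbxc-33* (WBGene00019924, chromosome II, 913672 to 915219) and *fbxc-31* (WBGene00019925, 911980 to 913052) are neighbours in the array that runs into the stretch. *fbxc-33* stood at 2.26 and 1.26 RPKM in the inputs and 13.2 and 10.1 in the RIPs (log2 enrichment 2.21), and *fbxc-31* at 0.309 and 0.244 against 4.60 and 3.74 (2.01). Of these 4, *fbxb-60*, *fbxb-103* and *fbxc-33* were called in every fit that left out a library. Without input 2, *fbxb-103* passed the filter only through the RIPs, so its call in that fit is no support for a difference. *fbxc-31* was tested only where both RIPs were kept, as its inputs were under 1 RPKM. Its calls are no support for a difference.

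The remaining 5 were *fbxc-43* (log2 enrichment 1.63), *fbxb-56* (1.28), *fbxc-50* (1.21), *fbxb-78* (1.14) and *fbxc-51* (1.01). *fbxc-50* and *fbxc-51*, the high members of adults, stood at 46.7 and 42.4 RPKM in input against 96.5 and 113 in RIP, and at 16.5 and 17.3 against 43.3 and 28.3. Because limma was run on log2(RPKM + 1), values of low genes such as *fbxc-31* understate their ratios. With each library centred on its median, which moved the median of all genes from -0.37 to -0.07, 14 members were enriched. Centring raised all genes alike, so this count is no trait of the families.

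**Figure D4:**
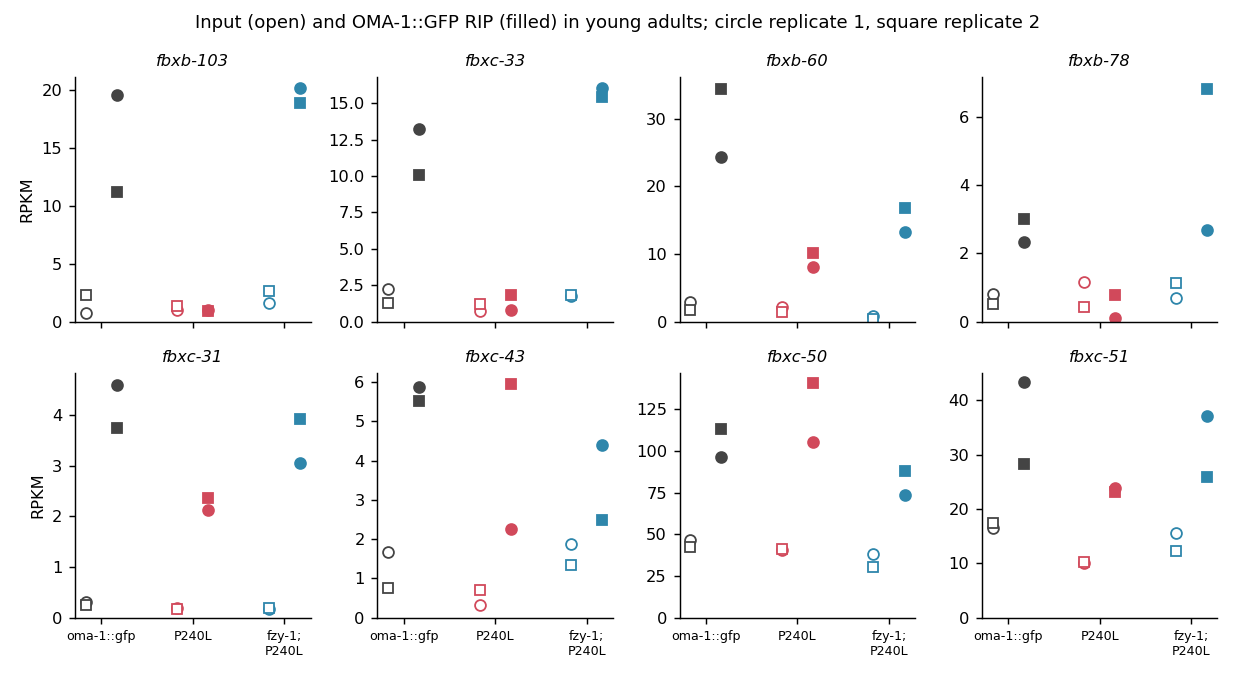
RPKM (linear axis from 0, a scale for each gene) of 8 members called enriched in at least 1 strain, in the 2 input (open) and 2 RIP (filled) libraries of each of the 3 tagged strains, 1 point a library. *fbxb-60* lies above its inputs in all 3 strains, while *fbxb-103* and *fbxc-33* lie near their inputs in *oma-1(P240L)::gfp*.

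In *oma-1(P240L)::gfp*, 58 members were tested, 6 were enriched (10.3%, background 6.32%) and 3 were depleted (5.17%, background 21.2%). The enriched ones were *fbxb-60* (log2 enrichment 1.87), *fbxc-43* (1.67), *fbxc-50* (1.55), *fbxc-31* (1.45), *fbxb-107* (1.24) and *fbxc-51* (1.14). *fbxb-60* stood at 2.13 and 1.4 RPKM in input and 8.01 and 10.1 in RIP, and *fbxc-50* at 40.6 and 41.3 against 105 and 141. Of these, *fbxc-43* and *fbxc-31* passed the filter only through the RIPs. The 3 depleted ones were copies of *fbxc-4* and *fbxc-5* described below, which passed only through the inputs, and 0 of them were called without input 2. With each library centred, 12 were enriched and 0 depleted. The share of all genes under that setting is not given here, so these counts are no trait of the families.

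In the *fzy-1* P240L strain, 73 members were tested, 11 were enriched (15.1%, background 9.14%) and 1, *fbxc-28*, was depleted (1.37%, background 21%), with a log2 change of -1.20. The largest enrichments were again *fbxb-60* (3.38, with inputs of 0.746 and 0.334 RPKM and RIPs of 13.2 and 16.7), *fbxb-103* (2.74, with 1.59 and 2.65 against 20.1 and 18.9) and *fbxc-33* (2.59, with 1.72 and 1.82 against 16 and 15.4). *fbxc-31* followed at 1.92, *fbxb-78* at 1.5, *fbxb-56* at 1.46, *fbxb-45* at 1.35, *fbxb-102* at 1.33, *fbxc-50* at 1.22, *fbxc-51* at 1.11 and *fbxb-44* at 1.04. Here *fbxb-60*, *fbxc-31* and *fbxb-102* passed the filter only through the RIPs, and *fbxc-28* only through the inputs. Leaving out input 1, input 2 or RIP 1 lost part of the calls of enriched members. The share of all genes called in those fits is not given here, so this loss is no trait of the families.

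*fbxb-45* was the 1 member of the chromosome II stretch that was called in a RIP. In the *fzy-1* P240L strain it stood at 1.17 and 1.30 RPKM in input and 4.35 and 5.08 in RIP, with an adjusted p of 0.00519 (SE 0.27, limma). In *oma-1::gfp* its log2 enrichment was 0.84 with an adjusted p of 0.0667. In *oma-1(P240L)::gfp* it was 0.29, and its input and RIP libraries overlapped there. *fbxb-29*, *fbxb-30* and *fbxb-39* were too low to be tested in the RIPs.

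The 3 strains share no libraries, and 13 members were enriched in at least 1 of them. *fbxb-60*, *fbxc-31*, *fbxc-50* and *fbxc-51* were enriched in all 3. Of these, *fbxc-31* passed the filter only through the RIPs in all 3 strains, and *fbxb-60* did so in the *fzy-1* P240L strain. The lists compared below include such calls, which are no support for a difference. Overlaps over all genes were not computed here, so those of the members cannot be called particular to them. Over all mRNAs, the authors report a larger overlap of OMA-1 with P240L in the *fzy-1* mutant than with P240L alone. The *oma-1::gfp* and *fzy-1* P240L lists had 8 members in common, 88.9% of the first and 72.7% of the second. The *oma-1(P240L)::gfp* list had 5 in common with that of *oma-1::gfp*, 83.3% of its own members and 55.6% of the other list, and the 2 P240L lists 4, 66.7% and 36.4%. Over the members tested in both, Spearman's rho of the log2 enrichments was 0.83 between *oma-1::gfp* and the *fzy-1* P240L strain (65 members), 0.51 between the P240L strains (50 members), and 0.65 between *oma-1(P240L)::gfp* and *oma-1::gfp* (48 members), as descriptions across genes.

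The differences of enrichment between strains were tested in 1 limma fit of all 12 libraries, in which 91 members were tested. Between *oma-1(P240L)::gfp* and *oma-1::gfp*, 2 members had lower enrichment with P240L (2.2%, background 3.87% of 11736 genes) and 0 had higher enrichment (background 1.26%). At an unadjusted p under 0.05 there were 14 lower and 4 higher (background 20.7% in either direction). Both members that were called, *fbxb-103* and *fbxc-33*, were at input level in the P240L RIPs.

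*fbxb-103* stood at 0.997 and 1.36 RPKM in the P240L inputs and 0.959 and 0.952 in the RIPs, against RIPs of 19.6 and 11.2 in *oma-1::gfp*. Its difference of log2 enrichment was -2.88 (SE 0.47, adjusted p = 0.00549, limma), and it was called under every alternative tried. As the exons of *fbxb-103* overlap *bcmo-2*, its values are less certain. *fbxc-33* stood at 0.758 and 1.21 in the P240L inputs and 0.802 and 1.81 in the RIPs, with a difference of -2.02 (SE 0.40, adjusted p = 0.0141, limma). It was not called in the fits without *oma-1::gfp* input 2, P240L RIP 1 or P240L input 2. *fbxb-60* had a difference of -1.35 with an adjusted p of 0.0706 and was not called.

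Between the *fzy-1* P240L strain and *oma-1(P240L)::gfp*, which shares the P240L libraries with the comparison before, 7 members had higher enrichment (7.69%, background 5.86%) and 2 lower (2.2%, background 3.6%). *fbxb-103* was at 2.89 (SE 0.47, adjusted p = 0.00376, limma) and *fbxc-33* at 2.40 (SE 0.40, adjusted p = 0.00417, limma), and both were called under every alternative. *fbxb-78* was at 1.83, *fbxb-102* at 1.76, *fbxc-24* at 1.55, *fbxb-60* at 1.51 and *fbxb-42* at 1.21. In the *fzy-1* P240L strain *fbxb-102* reached 1 RPKM in the RIPs alone, and it was too low to be tested in either other strain. It entered this fit mainly through the group where it is high, so its call is no support for a difference. *fbxc-58* was at -1.26 and *fbxc-18* at -1.10. Fewer members were called without RIP 2 or either input of the *fzy-1* P240L strain, or without either input or RIP 1 of *oma-1(P240L)::gfp*. Leaving out either *oma-1::gfp* input, which enters the shared estimate of the spread, also lost calls. The share of all genes called in those fits is not given here, so the loss is no trait of the families.

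Several gene lists moved with both differences, the yolk list most by its median. Of 6 adult intestine and yolk genes, 5 had lower enrichment in *oma-1(P240L)::gfp* than in *oma-1::gfp* (median difference -1.67) and 5 had higher enrichment in the *fzy-1* P240L strain than in *oma-1(P240L)::gfp* (1.45). Their summed level was 223 and 251 RPKM in the P240L RIPs and 1114 and 1140 in the P240L inputs. It was 1312 and 1075 RPKM in the *oma-1::gfp* RIPs and 953 and 938 in those of the *fzy-1* P240L strain. Of 9 later embryo genes tested, 2 had lower enrichment with P240L and 3 had higher enrichment with *fzy-1*, and their summed RIP level was 183 and 239 RPKM in *oma-1::gfp*, 28.6 and 41.6 with P240L and 206 and 306 in the *fzy-1* P240L strain. Of 7 other named F-box genes, 2 were lower and 3 higher in the same order, at summed RIP levels of 473 and 654, 217 and 258, and 568 and 738 RPKM. The part of these transcripts in the values of *fbxb-103* and *fbxc-33* was not tested.

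**Figure D5:**
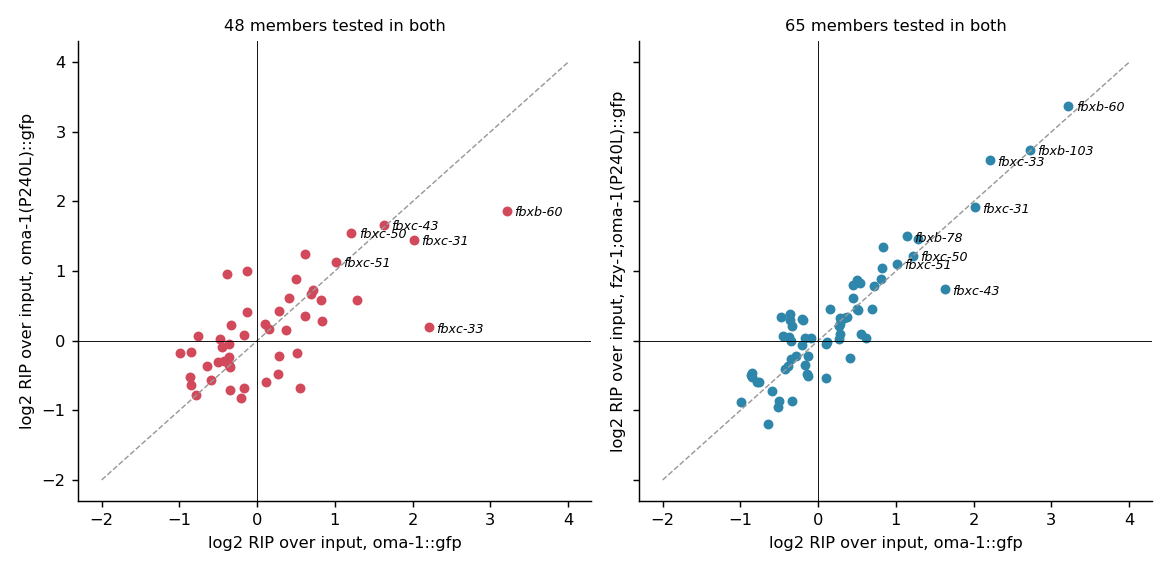
Log2 enrichment (RIP over input, log2(RPKM + 1) scale) of members tested in both strains, 1 point a gene, with *oma-1::gfp* on the horizontal axis and *oma-1(P240L)::gfp* (left, 48 members) or the *fzy-1* P240L strain (right, 65 members) on the vertical axis. The dashed line marks equal enrichment, *fbxb-60* lies at 3.22 on the horizontal axis and at 1.87 (left) and 3.38 (right) on the vertical one, and *fbxb-103*, not tested alone in *oma-1(P240L)::gfp*, appears on the right.

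In embryos the enriched transcripts had no common course. *fbxb-103* stood at 26.8 and 27.2 normalised CPM in N2 and 89.0 and 79.9 in *oma-1(zu405)*, a log2 fold change of 1.58 below the threshold of 2. *fbxb-60* stood at 6.30 and 4.71 against 4.11 and 2.23. *fbxb-56* and *fbxc-50* were called higher and *fbxb-78* lower in *oma-1(zu405)*. Over 65 members with both values, Spearman's rho between this fold change and the *oma-1::gfp* enrichment was -0.05, a description across genes.

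The inputs, compared to see whether the adult RNA itself differed between strains, set *fbxc-58* apart. *fbxc-58* (WBGene00007506, chromosome IV, 9371508 to 9373206), 1 of the 2 members annotated as soma enriched, stood at 2.75 and 4.39 RPKM in the *oma-1::gfp* inputs, 0 and 0.0561 in the *oma-1(P240L)::gfp* inputs and 4.29 and 4.07 in those of the *fzy-1* P240L strain. The P240L inputs lay below all others. The log2 difference from *oma-1::gfp* was -2.13 (SE 0.22, adjusted p = 0.00211, limma), and that of the *fzy-1* P240L strain from *oma-1(P240L)::gfp* was 2.33 (SE 0.22, adjusted p = 0.000926, limma). Both calls were made in every fit that left out a library and were lost with a pseudocount of 5. The 2 comparisons share the P240L inputs.

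Few other members differed between inputs. Against *oma-1::gfp*, 4 of 81 members tested were higher in *oma-1(P240L)::gfp* (4.94%, background 3.72%) and *fbxc-58* alone was lower (1.23%, background 2.38%). Between the P240L strains 1 was higher (1.23%, background 7.99%) and 1 lower (1.23%, background 2.49%). Between the *fzy-1* P240L strain and *oma-1::gfp*, 0 were called in either direction (backgrounds 5.06% and 0.594%), with 5 of 81 at an unadjusted p under 0.05 (23.8% of all genes), and limma without the intensity trend called 1 lower.

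The 4 members higher in the P240L inputs were copies of *fbxc-4* and *fbxc-5*, with log2 differences of 1.08 to 1.10, and 0 remained in fits without either *oma-1::gfp* input or either P240L input. The member lower between the P240L strains was a further copy of *fbxc-4* (-1.16). That copy (WBGene00016648) and, of the 4, *fbxc-5* WBGene00016649 reached 1 RPKM among the inputs only in those of *oma-1(P240L)::gfp*, so they passed the filter only through the group where they were high. These copies lie with *fbxc-8* genes between 891239 and 911196 of chromosome IV, and all 5 *fbxc-4* and *fbxc-5* genes there have 1128 exonic bases and like RPKM values. In the P240L inputs these 5 stood between 1.68 and 4.11 RPKM, and in the *oma-1::gfp* inputs between 0.457 and 0.926. How reads of near-identical copies were divided is not given in the sources used here, so the copies are uncertain one by one. In embryos they had 0 to 3 counts a library, and these low counts carry the same uncertainty.

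Sperm genes also moved between the inputs. Of 11 sperm genes on a marker list, 8 were called higher in *oma-1(P240L)::gfp* than in *oma-1::gfp* (median 2.01) and 11 in the *fzy-1* P240L strain (median 4.45). Their summed level was 11 and 7.80 RPKM in the *oma-1::gfp* inputs, 67.2 and 61.2 in the P240L inputs and 619 and 293 in those of the *fzy-1* P240L strain. The second germline annotation counts 5 members as spermatogenic (3.29%, against 9.39% of all genes) and 7 as oogenic (4.61%, against 6.96%). The part of the sperm transcripts in the input differences of *fbxc-58* and the *fbxc-4* and *fbxc-5* copies was not tested.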

How the data were processed

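Embryo reads were aligned by the authors with HISAT2 2.0.5 and counted with HTSeq 0.6.0, and whole read counts per gene were deposited. The genome build is not given in the sources used here. For the RIP and input libraries the authors deposited values taken here as RPKM on a scale 1000 times larger, which is inferred from their steps and sums against gene lengths; they were divided by 1000, and genes not listed in a file were set to 0. The deposited columns with the authors' own fold changes and p-values were not used, nor were 34 further columns of per-sample values. The submitters' processing notes also name CASAVA 1.4.

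Counts were tested with edgeR 4.0.16 (R 4.3.3; TMM, quasi-likelihood test), in a separate fit for each comparison of 2 genotypes, where 2 or more libraries had 10 counts of a gene. RPKM values were put on the log2(RPKM + 1) scale and tested with limma 3.58.1 (trend on), where 2 or more libraries reached 1 RPKM. All genes were fitted together, with Benjamini-Hochberg adjustment over each comparison. A gene was called at an adjusted p under 0.05 with a log2 change past 2 (counts) or 1 (RPKM) in size. Alternatives were DESeq2 1.42.0, other scalings, filters and pseudocounts, a replicate block, and leaving out each library. Figures were drawn with matplotlib 3.10.9, and tables written with numpy 2.4.6, scipy 1.17.1 and pandas 2.3.3 under Python 3.11.15. Where a count was 0, the upper limit (3 counts) came to 0.0922 to 1.85 normalised CPM per library, and 1 read on 1 kb was worth 0.0597 to 0.164 RPKM; both cover counting error only.

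Named genes are the members of the chromosome II stretch, up to 10 called members per direction and comparison with the largest change, the 8 highest in N2 embryos and in the *oma-1::gfp* input, and members with at least 10 counts in both libraries of 1 genotype and under 10 in both of another. A few further members (such as *fbxb-6*, *fbxc-52* and the arrays) were named after their values were seen. The members and lists were chosen with earlier results of these data known. On simulated data with 200 changed genes, 100% were recovered in the *oma-1(zu405)*, RIP and input comparisons, and 95.5% and 98.0% in the differences of enrichment. The planted changes were past the call thresholds, in genes above a set level, with 1 common spread for all genes. These shares therefore do not measure power for members at low levels.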

Additional observations from a re-analysis of the deposited data

Results flagged for a closer look

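A difference of RIP enrichment between strains, tested as such with limma, was past the threshold for 9 members. From *oma-1::gfp* to *oma-1(P240L)::gfp*, *fbxb-103* had a difference of log2 enrichment of -2.88 and *fbxc-33* one of -2.02. From *oma-1(P240L)::gfp* to the *fzy-1* P240L strain, the differences were 2.89 for *fbxb-103*, 2.40 for *fbxc-33*, 1.83 for *fbxb-78*, 1.76 for *fbxb-102*, 1.55 for *fbxc-24*, 1.51 for *fbxb-60*, 1.21 for *fbxb-42*, -1.10 for *fbxc-18* and -1.26 for *fbxc-58*. Both sets rest on the same 4 P240L libraries, so that a change of sign between them is not independent evidence. Exons of *fbxb-103* overlap *bcmo-2*, so its values are less certain. *fbxb-42* was listed at 0 in both P240L RIPs, and *fbxc-24* at 0 and 0.0714 RPKM. *fbxb-102* entered this fit mainly through the RIPs of the *fzy-1* P240L strain, where it is high. *fbxc-58* was at 0.253 and 0.286 RPKM in the P240L RIPs and at 0 and 0.0561 in the inputs.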

How the results depend on the processing

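Directions of called members held: of 328 results of called members with 1 library left out, 0 changed sign, although part of the calls were lost. Over all tested members directions depended on the scaling. For *oma-1(zu405)* against N2, 65 were above and 60 below 0 with TMM, and 24 and 101 with total counts. For the double mutant against N2 these were 79 and 45 with TMM, and 19 and 105 with total counts. For *oma-1(zu405)* against N2 (8 members higher, 10 lower), total counts gave 1 and 36, 1 fit of all 6 libraries 0 and 0, the adjusted p alone 43 and 35, and a filter on 3 libraries 5 higher. Leaving out a library gave 5 to 7 higher and 7 to 17 lower. For the double mutant against N2 (0 and 0), DESeq2 gave 1 higher and every gene with a count 1 higher, and leaving out a library 0 to 13 higher and 0 to 10 lower. Against *oma-1(zu405)* (0 and 0), leaving out a library gave 0 to 14 higher and 0 to 7 lower.

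For the RIP of *oma-1::gfp* (9 enriched, 0 depleted), a pseudocount of 5 gave 4 enriched, 0.1 gave 3 depleted, centred libraries 14 enriched, and leaving out a library 4 to 11 and 0 to 3. For *oma-1(P240L)::gfp* (6 and 3), a pseudocount of 5 gave 2 and 0, centred libraries 12 and 0, and leaving out a library 0 to 4 depleted. For the *fzy-1* P240L strain (11 and 1), a pseudocount of 5 gave 4 and 0, 0.1 gave 4 depleted, centred libraries 17 and 0, and leaving out a library 4 to 10 and 0 to 2. For the difference of *oma-1(P240L)::gfp* from *oma-1::gfp* (2 lower), leaving out a library gave 1 to 4. For that of the *fzy-1* P240L strain from *oma-1(P240L)::gfp* (7 and 2), a pseudocount of 5 gave 2 and 0, every gene above 0 gave 4 and 0, and leaving out a library 2 to 8 and 0 to 3.

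For the inputs of *oma-1(P240L)::gfp* against *oma-1::gfp* (4 higher, 1 lower), a pseudocount of 5 gave 0 and 0, 0.1 gave 3 lower, every gene above 0 gave 1 higher, and leaving out a library 0 to 5 higher. For the *fzy-1* P240L strain against *oma-1::gfp* (0 lower), centred libraries, limma without the trend and the replicate block gave 1 lower each, and leaving out a library 0 to 1. Between the P240L strains (1 and 1), a pseudocount of 5 gave 0 and 0, 0.1 gave 3 and 3, every gene above 0 gave 0 lower, centred libraries 6 lower, and leaving out a library 0 to 2 lower. The counts in this section are of members alone, without the share of all genes under the same setting. They therefore describe how the calls depend on processing and no trait of the families. The cause of these shifts was not tested.

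Replicate numbers did not pair the RIP and input libraries by a rule that needs 3 pairs, with correlations of same-numbered deviations of 0.079, 0.047 and 0.280 in the 3 strains. Between inputs of different strains they were 0.028, 0.101 and, for *oma-1::gfp* with the *fzy-1* P240L strain, 0.538. With the replicate number as a block, 47 of 48 calls of single members were kept, and *fbxb-60* lost its call in the difference between the P240L strains (6 members higher in place of 7). The embryo libraries carry no replicate numbers. Where leaving out a library left 1 in its group, that library was taken to vary like the others.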
